A study of Mus musculus with 6 samples.

Results

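The genes described here make and load the molecules that show peptides to T cells. They are 10 of the 18193 genes measured in mouse liver. The class I group holds 6 of them, the heavy chains H2-D1 and H2-K1, their partner B2m, the peptide transporter subunit Tap1, and the proteasome subunits Psmb8 and Psmb9. The class II group holds the other 4, the chains H2-Aa, H2-Ab1 and H2-Eb1, and Cd74, the invariant chain. A probe set (a group of array probes read as 1 value) was taken as a member when the platform annotation gave it exactly 1 gene symbol and that symbol was among the 10. This gave 31 probe sets, 22 of class I and 9 of class II, out of 45037 on the array. The annotation ties 3 more probe sets to a member together with other genes, and these were left out.

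Liver RNA of 6 male BALB/cCrSlc mice, 17 weeks old, was read on 1 Affymetrix array per mouse. Both groups ate a low-protein diet based on AIN-93M, a purified rodent diet, for 10 weeks and went without food for 3 h before sampling. The control diet 10C held 10% casein, and the diet 6C+4CP held 6% casein and 4% fish-derived collagen peptide. The diets differ in both casein and collagen peptide, whose parts cannot be told apart, and the 3 mice of each diet were picked from 12 for medium food efficiency.

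Class I molecules sit on nearly all nucleated cells, hepatocytes included. They carry peptides cut by the proteasome in the cytosol and moved by the TAP transporter into the endoplasmic reticulum, and they show them to CD8 T cells. Class II molecules are made mainly by macrophages, dendritic cells and B cells, and in liver also by Kupffer cells, the resident macrophages. They are assembled with the invariant chain and show peptides of material taken up from outside to CD4 T cells. Interferon gamma induces genes of both classes.

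Values are the authors' processed values, read as log2, and a difference is always 6C+4CP minus 10C. The array medians lay between 6.306 and 6.308, and with 3 arrays per diet the number of mice limits the precision. In the deposited table most probe sets carry the same value on all 6 arrays, and a probe set was called varying when its 6 values ranged over more than 0.01. By that mark 7791 of the 45037 probe sets (17.3%) varied. A shared value does not show whether the gene's level differed. The mouse 10C replicate 3 was closer to 6C+4CP replicate 2 across varying probe sets (r = 0.985) than to 10C replicates 1 and 2 (r = 0.971 and 0.973), so member differences are also given without it, or without another mouse, where that moved them by over 1.5 times. These correlations run across probe sets and have no replicates of their own. The 7 measured hepatocyte markers, such as Alb, averaged between 13.22 and 13.32 under 10C and between 13.15 and 13.32 under 6C+4CP, in tissue labelled as liver.

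All varying probe sets of both classes read lower in the mice fed 6C+4CP, and none passed the test. Of the 31 member probe sets, 20 varied, 14 of class I and 6 of class II, and each of the 10 genes had at least 1 of them. All 20 had a lower mean in 6C+4CP and 0 a higher one (Cd74 was higher by 0.0012 when 6C+4CP replicate 1 was left out), where 52.1% of all varying probe sets were lower. The median difference was -0.25 over the 14 class I probe sets and -0.31 over the 6 class II probe sets, beside -0.0040 over all varying probe sets. With the shared values included the medians were -0.17 over all 22 class I and -0.22 over all 9 class II probe sets. Several of these probe sets read the same gene or closely related genes, so the 20 are not 20 separate observations. The plot of diet differences shows each with its interval.

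**Figure D1:**
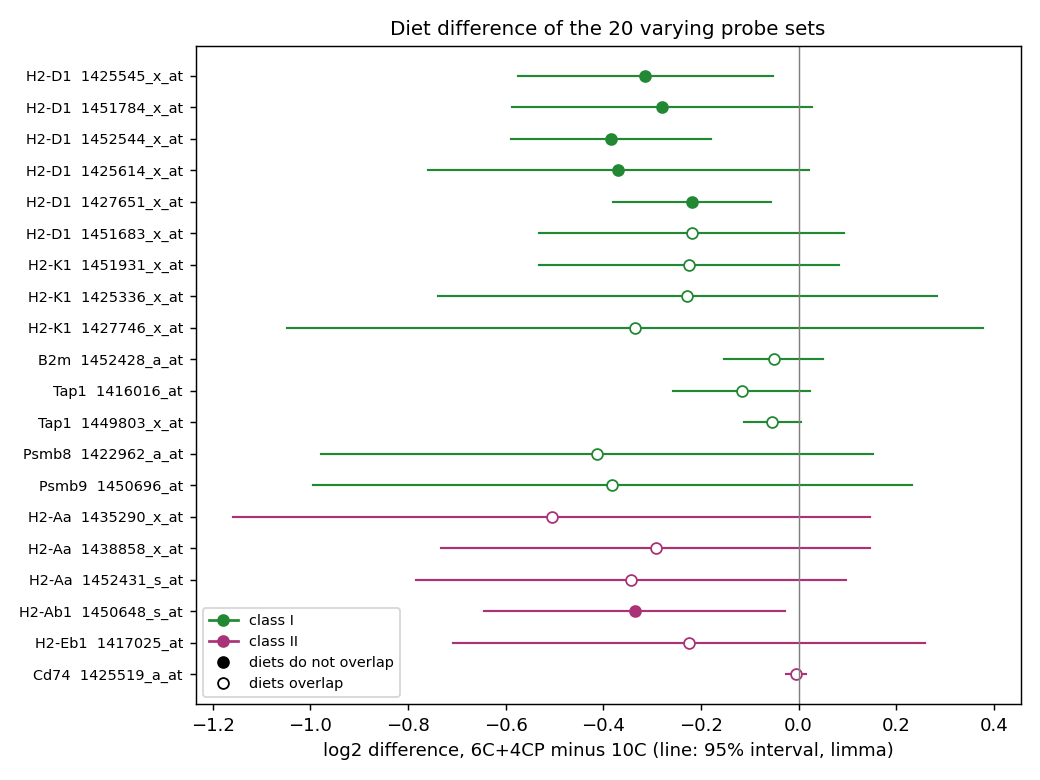
Difference in mean log2 value (6C+4CP minus 10C, 3 mice each) of the 20 varying member probe sets, with the unadjusted 95% interval from limma. All 20 points lie below 0; filled points mark the 6 probe sets whose diets do not overlap, 5 of H2-D1 and 1 of H2-Ab1.

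In limma with Benjamini-Hochberg adjustment over all 45037 probe sets, 0 of the 31 members passed at an adjusted p under 0.05, where 0.242% of all probe sets did. Of the 109 probe sets called in that fit, 103 hold shared values. Fitted on the 7791 varying probe sets alone, limma called 0 members and 0% of all. The smallest adjusted p among members was 0.504 in the fit to all probe sets and 0.129 in the fit to varying ones. At an unadjusted p under 0.05 the fit to all held 4 members, all lower, 3 of H2-D1 and 1 of H2-Ab1. In that fit 1018 of all 7791 varying probe sets were at that level, in either direction. The fit to varying ones held 6, all lower, 5 of H2-D1 and 1 of H2-Ab1. There 6.35% of all varying probe sets were lower at that level. In 6 of the 20, 5 of class I and 1 of class II, the 3 mice of 6C+4CP lay below all 3 of 10C, where 9.11% of varying probe sets did. All 5 of class I were H2-D1 probe sets.

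Promoters of 8 of the 10 genes were in the RefSeq table (GRCm38.p6), and 6 stretches of them are shown because they carry letters known from promoters of this gene family. The table's genome is that of C57BL/6J, which has another haplotype of the major histocompatibility complex than BALB/c, so single bases may differ in these mice. Each line ends at the base before the gene's start (for H2-K1, which has 2 starts in the table, the upstream one), except that Tap1 and Psmb9 start on opposite strands with 225 bases between them, which are shown on Tap1's strand. Capitals mark the motifs searched on both strands: the core of a cAMP response element (TGACG), the inverted CCAAT box (ATTGG), a core of the interferon-stimulated response element (TTTCNNTTC) and the form with its parts around NN swapped (TTCNNTTTC), and a kappa B core (GGGATTCCC).
H2-D1 (chr17:35262894-35263093, plus strand): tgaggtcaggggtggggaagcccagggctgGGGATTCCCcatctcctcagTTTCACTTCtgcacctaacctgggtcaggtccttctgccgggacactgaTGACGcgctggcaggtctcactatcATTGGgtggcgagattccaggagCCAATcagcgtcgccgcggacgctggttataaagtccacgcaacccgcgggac
H2-K1 (chr17:34000348-34000547, minus strand): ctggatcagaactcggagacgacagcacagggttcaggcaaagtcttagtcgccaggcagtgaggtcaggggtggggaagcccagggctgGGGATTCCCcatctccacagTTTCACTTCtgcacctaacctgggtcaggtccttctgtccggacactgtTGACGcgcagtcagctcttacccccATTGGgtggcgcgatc
B2m (chr2:122147487-122147686, plus strand): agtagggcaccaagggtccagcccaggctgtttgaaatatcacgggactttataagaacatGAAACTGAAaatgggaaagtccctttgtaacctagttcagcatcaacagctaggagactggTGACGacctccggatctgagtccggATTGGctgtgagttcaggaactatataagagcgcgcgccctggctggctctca
Tap1 and Psmb9 (chr17:34187331-34187555, plus strand): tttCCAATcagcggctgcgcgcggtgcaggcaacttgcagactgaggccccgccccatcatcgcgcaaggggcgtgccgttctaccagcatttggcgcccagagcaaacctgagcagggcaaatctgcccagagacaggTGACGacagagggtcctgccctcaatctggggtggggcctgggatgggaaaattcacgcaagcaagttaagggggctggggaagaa
H2-Aa (chr17:34287824-34288023, minus strand): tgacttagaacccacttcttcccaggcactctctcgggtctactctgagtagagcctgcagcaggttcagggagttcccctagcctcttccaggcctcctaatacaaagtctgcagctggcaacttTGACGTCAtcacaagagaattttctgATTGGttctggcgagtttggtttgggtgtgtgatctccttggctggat
H2-Eb1 (chr17:34305667-34305866, plus strand): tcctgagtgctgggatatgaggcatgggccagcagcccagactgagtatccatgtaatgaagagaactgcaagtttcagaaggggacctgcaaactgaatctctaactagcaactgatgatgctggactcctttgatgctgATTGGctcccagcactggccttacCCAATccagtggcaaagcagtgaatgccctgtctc

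In H2-D1, H2-K1 and B2m, TGACG is followed on the same strand by ATTGG with exactly 20 bases between them, and in H2-Aa with 21 bases between them. Among the 250-base stretches before all 32851 starts in the table, 0.642% held that pair with 10 to 30 bases between. The window of the other H2-K1 start holds the same pair and a second inverted CCAAT box, on the other strand, nearer to that start. H2-Eb1 holds the inverted CCAAT box but not TGACG in this window. Tap1 holds both, but on opposite strands and with the CCAAT motif farther from its start than TGACG (222 and 86 bases before it). Singly, TGACG was in 17.8% and ATTGG in 33.8% of all stretches. The kappa B core was in H2-D1 and H2-K1 and in 0.301% of all stretches, and TTTCNNTTC was in the same 2 genes and in 6.31% of stretches. TTCNNTTTC was in B2m, on its other strand, and in 7.13% of stretches. The interferon gamma activated site in its form TTCNNNGAA was in Psmb8 and in 7.02% of stretches, and no occurrences of different motifs overlapped in the members, while TGACG on both strands overlapped with itself in H2-Aa. The motifs were picked with these sequences in view, and a match of letters is a description that says nothing of binding in these livers.

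H2-D1, a heavy chain that holds the peptide, was read by 9 probe sets, of which 6 varied. The one with the highest mean, 1425545_x_at, read 10.89, 10.87 and 11.16 under 10C and 10.70, 10.60 and 10.67 under 6C+4CP. The diets did not overlap there, and 10C replicate 3 stood highest. The means were 10.97 ± 0.16 and 10.66 ± 0.048 (SD, n = 3 each), a difference of -0.31 (SE 0.095), which is 1.24 times lower, and limma gave an adjusted p of 0.690 over all probe sets and 0.218 over varying ones.

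The smallest limma p of all members was that of another H2-D1 probe set, 1452544_x_at. It read 10.52, 10.42 and 10.64 in 10C against 10.11, 10.22 and 10.09 under 6C+4CP, again with a gap between the diets. Its difference was -0.38 (SE 0.075), or 1.31 times lower, with an adjusted p of 0.504 over all probe sets and 0.129 over varying ones in limma. Without 10C replicate 3 that difference was -0.33, and that of 1425545_x_at was -0.22.

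The 4 other varying H2-D1 probe sets differed by -0.22 to -0.37. Without 10C replicate 3 the difference of 1451784_x_at went from -0.28 to -0.17 and that of 1425614_x_at from -0.37 to -0.25. In 1451784_x_at the 10C mice read 10.42, 10.40 and 10.75 and the 6C+4CP mice 10.22, 10.23 and 10.28. In 1425614_x_at they read 9.87, 10.08 and 10.35 against 9.64, 9.75 and 9.79. In both, 10C replicate 3 was highest and the diets were apart. 1427651_x_at read 9.91, 9.83 and 10.00 against 9.68, 9.76 and 9.64, and 1451683_x_at read 8.86, 9.16 and 9.11 against 8.73, 8.78 and 8.96. The last is the varying H2-D1 probe set whose diets overlapped, with 10C replicate 1 below 6C+4CP replicate 3. The other 3 H2-D1 probe sets held shared values of 7.45, 6.49 and 5.80. The plot of H2-D1 probe sets shows all 6 by mouse.

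**Figure D2:**
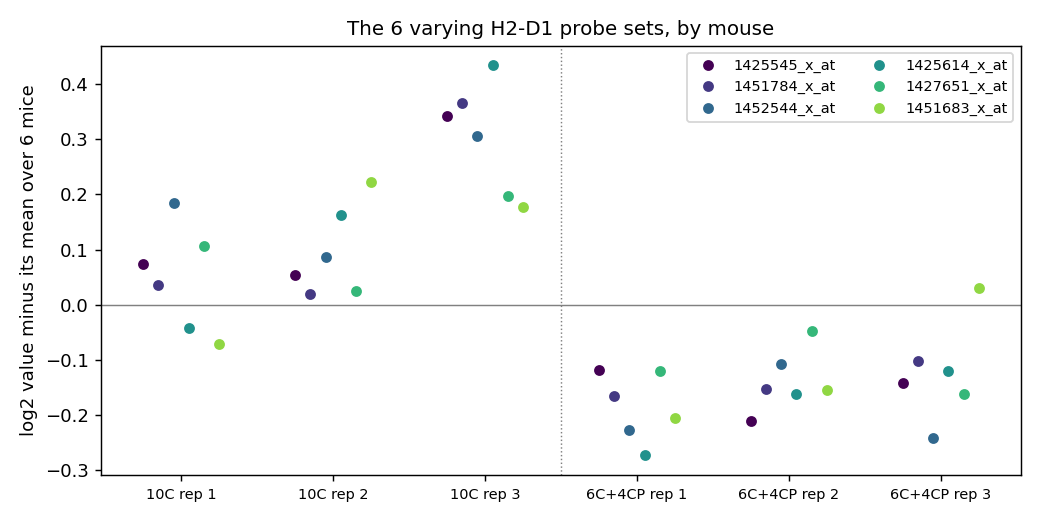
The 6 varying H2-D1 probe sets, each as log2 value minus its own mean over the 6 mice (points), by mouse; points of a mouse are set side by side and the dotted line parts the diets. In 10C replicate 3 all points are above 0, and in 6C+4CP 1 point, that of 1451683_x_at in replicate 3, is.

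H2-K1, the other heavy chain, differed by about as much as H2-D1. Of its 4 probe sets 3 varied. The SE was larger in 1425336_x_at and 1427746_x_at than in any varying H2-D1 probe set, but not in 1451931_x_at. 1451931_x_at read 9.86, 10.11 and 10.17 under 10C and 9.85, 9.70 and 9.92 under 6C+4CP, so 10C replicate 1 lay inside the range of the other diet. Its means were 10.04 ± 0.16 and 9.82 ± 0.11, with a difference of -0.22 (SE 0.11; adjusted p = 0.717 in limma over all probe sets, 95% interval -0.53 to 0.083). 1425336_x_at read 9.86, 9.94 and 10.27 against 9.56, 10.05 and 9.78, a difference of -0.23 (SE 0.19), or -0.10 without 10C replicate 3. Dropping 6C+4CP replicate 1 gave -0.11, and dropping 6C+4CP replicate 2 gave -0.35. 1427746_x_at, with 8.74, 9.06 and 9.40 against 8.36, 8.87 and 8.96, had the widest range of the class I probe sets (1.03) and a difference of -0.33 (SE 0.26), or -0.17 without 10C replicate 3. It was -0.15 when 6C+4CP replicate 1 was dropped. In all 3 the diets overlapped and 10C replicate 3 was highest.

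All 9 varying probe sets of the heavy chains end in _x_at, Affymetrix's mark for probes that may also match other transcripts. The same mark ends the names of Tap1 1449803_x_at and, in class II, of H2-Aa 1435290_x_at and 1438858_x_at. H2-D1, H2-K1 and their relatives are near copies, so which heavy chain a value reads is uncertain. One probe set that the annotation gives to both genes, outside the members, read 8.37, 8.61 and 8.84 in 10C against 8.29, 8.61 and 8.49 under 6C+4CP.

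B2m, the invariant light chain that every class I molecule needs, differed by the least among the class I genes. Its varying probe set 1452428_a_at read 12.51, 12.45 and 12.47 under 10C and 12.41, 12.37 and 12.49 under 6C+4CP. The diets overlapped through 6C+4CP replicate 3, and the difference was -0.051 (SE 0.037; adjusted p = 0.853 in limma over all probe sets). Its 95% interval ran from -0.15 to 0.051, and the difference was -0.024 when 6C+4CP replicate 2 was dropped, and -0.082 when replicate 3 of that diet was. Its other probe set held 12.83 in all 6 mice.

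Tap1, a subunit of the peptide transporter, also differed by little. 1416016_at read 6.93, 7.01 and 6.89 under 10C and 6.89, 6.84 and 6.76 under 6C+4CP, with 10C replicate 2 highest. The groups met at 6.89, and the difference was -0.12 (SE 0.051; adjusted p = 0.704 in limma). A second varying probe set, 1449803_x_at, differed by -0.053 (SE 0.021) between 5.75 and 5.85, and 2 more held shared values.

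Psmb8 is a subunit of the immunoproteasome that replaces a catalytic subunit of the standard proteasome under interferon. One of its probe sets, 1444619_x_at, held 6.64 in all 6 mice. Its varying probe set, 1422962_a_at, read 8.06, 8.37 and 8.76 under 10C and 7.92, 7.92 and 8.10 under 6C+4CP. Its difference was -0.41 (SE 0.21), or 1.33 times lower, and -0.23 without 10C replicate 3 (adjusted p = 0.716 in limma with all mice). Psmb9, its partner in the same particle, read 7.69, 8.25 and 7.86 against 7.48, 7.32 and 7.85. Its difference was -0.38 (SE 0.22; adjusted p = 0.803), with -0.22 without 10C replicate 2, the mouse with the highest value, and -0.42 without 10C replicate 3. In both genes the diets overlapped, with 10C replicate 1 below 6C+4CP replicate 3. Psmb5, the standard subunit that Psmb8 replaces, differed by -0.13 (SE 0.068), and its counterparts Psmb6 and Psmb7 held shared values. Tap1, Psmb8 and Psmb9 are direct neighbours in the RefSeq gene table.

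**Figure D3:**
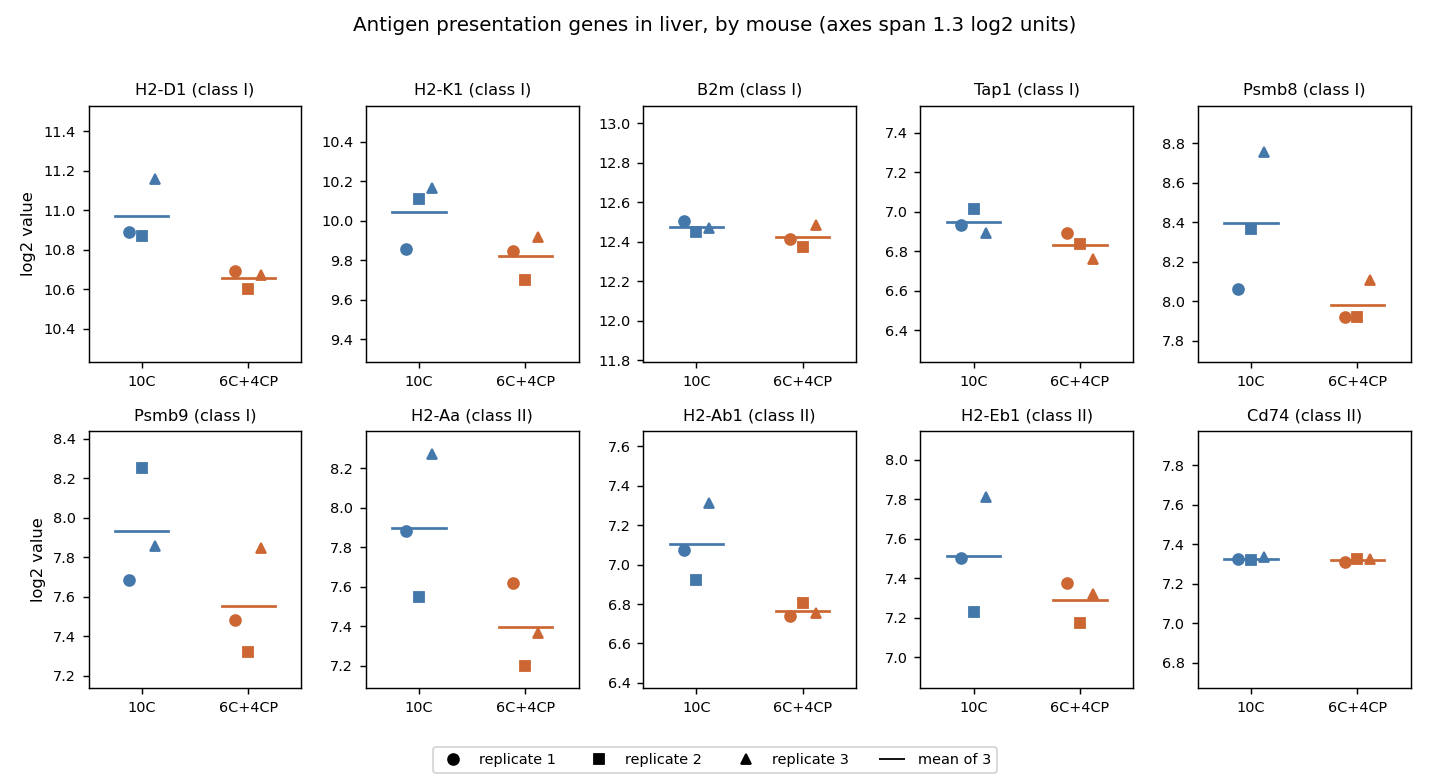
Log2 value of the 10 genes by mouse, each gene by its varying probe set with the highest mean; points are single mice, marked by replicate number, and bars are means of 3. Every mean is lower in 6C+4CP, and the diets are apart for H2-D1 and H2-Ab1.

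Class II chains were lower by amounts like those of the class I heavy chains, and 10C replicates 1 and 3 were the highest mice in 5 of the 6 varying probe sets. H2-Aa, the alpha chain of the A molecule, had the largest difference of all members with all 6 mice. That rank held without 10C replicate 2 or without 6C+4CP replicate 1, and not without any other mouse. Psmb9 had the largest without 10C replicate 3 or 6C+4CP replicate 3. Psmb8 had it without 10C replicate 1, and H2-D1 without 6C+4CP replicate 2. The H2-Aa probe set 1435290_x_at read 7.88, 7.55 and 8.27 under 10C and 7.62, 7.20 and 7.37 under 6C+4CP. 10C replicate 2 lay below 6C+4CP replicate 1, so the diets overlapped. The means were 7.90 ± 0.36 and 7.40 ± 0.21, a difference of -0.51 (SE 0.24), or 1.42 times lower, with an adjusted p of 0.704 in limma over all probe sets and 0.372 over varying ones. Without 10C replicate 3 the difference was -0.32.

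Both other varying H2-Aa probe sets ordered the mice much alike. 1438858_x_at read 7.23, 6.96 and 7.50 against 7.03, 6.85 and 6.94, a difference of -0.29 (SE 0.16), or -0.16 without 10C replicate 3. 1452431_s_at read 7.40, 6.96 and 7.30 against 7.05, 6.73 and 6.85, a difference of -0.34 (SE 0.16). In each, 10C replicate 2 lay below 6C+4CP replicate 1 and 6C+4CP replicate 2 was lowest. The remaining H2-Aa probe set, 1443783_x_at, held a shared value of 5.49.

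H2-Ab1, the beta chain that pairs with H2-Aa, was the class II gene without overlap. 1450648_s_at read 7.08, 6.92 and 7.31 under 10C and 6.74, 6.80 and 6.76 under 6C+4CP. The spread within 6C+4CP was small (SD 0.034) beside that within 10C (SD 0.20). The difference was -0.34 (SE 0.11; adjusted p = 0.704 in limma over all probe sets and 0.246 over varying ones), or -0.23 without 10C replicate 3. Its 2 other probe sets held shared values of 6.63 and 6.60.

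H2-Eb1, the beta chain of the E molecule, read 7.50, 7.23 and 7.81 under 10C and 7.38, 7.17 and 7.32 under 6C+4CP. 10C replicate 2 lay between the 6C+4CP mice, and the difference of -0.22 (SE 0.18; adjusted p = 0.853 in limma) was -0.075 without 10C replicate 3 and -0.37 without 10C replicate 2. H2-Ea, its alpha partner, which BALB/c mice express and C57BL/6 mice lack, read 7.74, 7.32 and 7.77 against 7.68, 7.30 and 7.53. Its difference was -0.11 (SE 0.18), between -0.25 and -0.0065 without single mice, and 10C replicate 2 was again lowest of its diet.

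Cd74, the invariant chain that guides class II chains through the cell, barely varied in the table. Its values ran from 7.31 to 7.34 with a range of 0.026, the smallest among varying members. The difference was -0.0052 (SE 0.0076) and ran from -0.0084 to 0.0012 without single mice, with the change of sign when 6C+4CP replicate 1 was dropped. The next smallest ranges were those of Tap1 1449803_x_at (0.10) and B2m (0.14), and the widest below the mark was 1.44e-07 (H2-Ab1), so the mark of 0.01 fell in an empty stretch.

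The classes had differences of like size, while their averaged values put the mice in another order. Each gene's varying probe set with the highest mean was centred on its mean over the 6 mice, and the centred values were averaged over the 6 class I and the 4 class II genes. Class I stood at -0.013, 0.17 and 0.21 in 10C replicates 1 to 3 and at -0.13, -0.21 and -0.038 under 6C+4CP replicates 1 to 3. Class II stood at 0.12, -0.073 and 0.36 and at -0.067, -0.20 and -0.13. 10C replicate 3 was high in both averages, while 10C replicate 2 was high in that of class I and below the mean in that of class II. The class I genes were not alike in this. Among 10C mice, replicate 2 was highest in Tap1 and Psmb9, between the others in H2-K1 and Psmb8, and lowest in H2-D1 and B2m. In Psmb9 it read 8.25, beside 7.69 and 7.86 in 10C replicates 1 and 3.

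Over single probe sets this split was not clear in class I. 10C replicate 2 was the lowest 10C mouse in all 6 varying class II probe sets. In class I it was the lowest 10C mouse in 6 of the 14 and the highest in 3. 10C replicate 3 was the highest of all mice in 10 of the 14 and in 5 of the 6. All highest values were in 10C mice and all lowest values in 6C+4CP mice, in both classes. The diet difference of the averaged values was -0.25 for class I and -0.27 for class II. By the medians over probe sets class I differed by 0.060 less than class II, where the spread between mice of a diet was 0.17 (SD). Without 10C replicate 3 the medians were -0.17 and -0.20. Whether the classes differed was not tested.

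**Figure D4:**
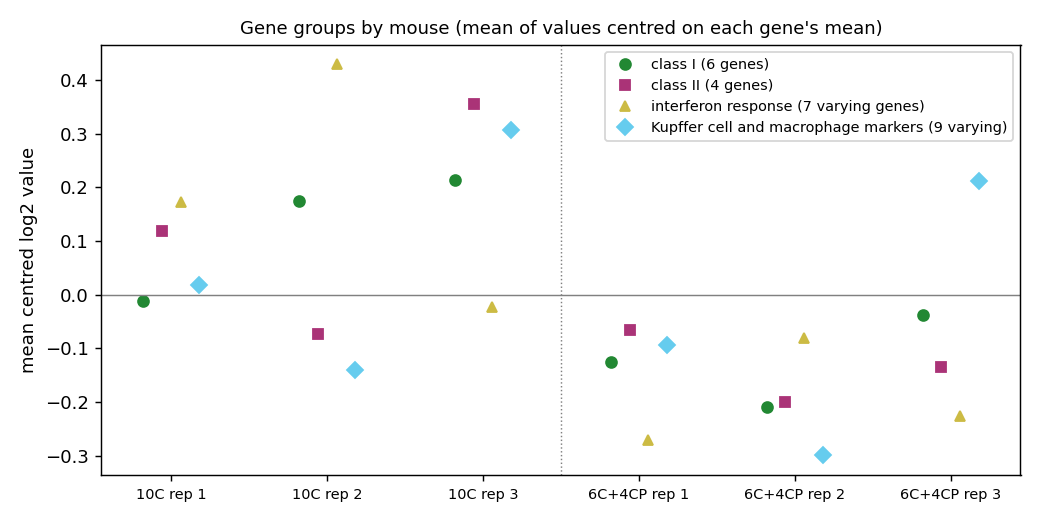
Mean centred log2 value by mouse (each gene minus its mean over 6 mice, then averaged) of the class I genes, the class II genes, the 7 varying interferon response genes and the 9 varying Kupffer cell and macrophage markers; points are mice and the dotted line parts the diets. The interferon genes are highest in 10C replicate 2 (0.43) and the markers in 10C replicate 3 (0.31).

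Of other class I pathway genes 18 were measured, by 1 probe set each, and 4 varied, 2 lower and 2 higher. In limma 0 passed in either direction and 2, both lower, had an unadjusted p under 0.05. In that fit 1018 of all 7791 varying probe sets were at that level. Pdia3, a chaperone of the complex that loads peptide onto class I, read 11.24, 11.87 and 11.36 under 10C and 10.67, 10.48 and 10.33 under 6C+4CP, a difference of -0.996 (SE 0.21; adjusted p = 0.572). Calr, calreticulin of the same complex, differed by -0.88 (SE 0.30), also without overlap. Both also belong to general protein folding in the endoplasmic reticulum. The higher members were the class I-like genes Fcgrt, the neonatal Fc receptor, with 0.21 (SE 0.14; 0.13 to 0.33 without single mice), and H2-Q10, a secreted class I molecule made by liver, with 0.17 (SE 0.15; 0.084 to 0.29 without single mice). H2-Q10 read 11.66, 11.35 and 11.26 against 11.47, 11.54 and 11.77, with overlap.

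Of other class II pathway genes 19 were measured and 5 varied, 3 lower and 2 higher. Without 10C replicate 1 or without 6C+4CP replicate 2 the counts were 2 lower and 3 higher. In limma 0 passed in either direction. At an unadjusted p under 0.05 there were 0 in the fit to all probe sets and 1 in the fit to varying ones. Of all 7791 varying probe sets 1018 and 1140 were at that level in the same fits. Marchf8, a ubiquitin ligase that removes class II molecules from the surface, was higher without overlap, at 8.82, 9.09 and 9.13 under 10C and 9.17, 9.30 and 9.38 under 6C+4CP (difference 0.27, SE 0.11; adjusted p = 0.704; 0.17 without 10C replicate 1). Rfxank, a subunit of the factor that binds class II promoters, differed by -0.15 (SE 0.13; -0.27 to -0.048 without single mice), and Ctsl, a lysosomal protease, by 0.028 (SE 0.055; -0.0091 without 10C replicate 3). Ciita, the coactivator that switches class II genes on, held a shared value.

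Interferon response genes were lower as well, with all 7 varying of 21 measured lower, where 52.1% of all varying probe sets were. Their median difference was -0.36. In limma 0 passed and 1 had an unadjusted p under 0.05, where 1018 of all 7791 varying probe sets did. Irgm1, an interferon-induced GTPase, read 8.26, 8.58 and 8.07 under 10C and 7.72, 7.74 and 7.66 under 6C+4CP, a difference of -0.60 (SE 0.15; adjusted p = 0.574). Irf9, a subunit of the factor that binds interferon-stimulated response elements, differed by -0.36 (SE 0.16) with overlap, and Iigp1, another GTPase, by -0.22 (SE 0.10) without. Socs1, an inhibitor of interferon signalling, differed by -0.013 (SE 0.0060). Averaged over the 7, the centred values were 0.17, 0.43 and -0.023 in 10C and -0.27, -0.082 and -0.23 under 6C+4CP. The mouse with the highest interferon average, 10C replicate 2, also had the highest Psmb9 and Tap1 1416016_at values. The highest heavy chain value was in 10C replicate 3 instead in all varying probe sets but H2-D1 1451683_x_at.

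Markers of cells that make class II were read beside these values. Of 15 Kupffer cell and macrophage markers 9 varied, 7 lower and 2 higher, where 52.1% of all varying probe sets were lower. Their median difference was -0.19 and 0 passed limma, with 0 at an unadjusted p under 0.05. Without 10C replicate 3 they were 4 lower and 5 higher with a median of 0.00048, and without 6C+4CP replicate 2 they were 5 lower and 4 higher with a median of -0.032. Without 6C+4CP replicate 3 the median was -0.36. Their centred average was 0.017, -0.14 and 0.31 in 10C and -0.094, -0.30 and 0.21 under 6C+4CP. It was high in 10C replicate 3 and low in 10C replicate 2 and 6C+4CP replicate 2, as in class II, but 6C+4CP replicate 3 was high in the markers and not in class II. Over all 15 markers the mean value lay between 7.77 and 8.04 in 10C and between 7.68 and 7.98 under 6C+4CP. Lyz2 and Cd5l, both made by macrophages, differed by -0.28 (SE 0.16) and -0.28 (SE 0.19), or -0.16 and -0.14 without 6C+4CP replicate 2, and the iron exporter Slc40a1 by 0.26 (SE 0.14), or 0.13 without 10C replicate 2. Fewer macrophages and less RNA per macrophage cannot be told apart in a piece of liver, and the part of these cells in the class II values was not tested.

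Of 6 B cell markers measured 2 varied. Ighm, the heavy chain of IgM, read 8.66, 9.08 and 9.22 under 10C and 8.32, 8.40 and 8.26 under 6C+4CP, a difference of -0.66 (SE 0.17; adjusted p = 0.610 in limma) without overlap, and Cd22, a B cell surface lectin, differed by 0.050 (SE 0.055). The mean of the 6 lay between 6.68 and 6.78 in 10C and between 6.62 and 6.64 under 6C+4CP. Of 7 dendritic cell markers 1 varied, Itgax, by 0.012 (SE 0.021), and their mean lay between 6.24 and 6.25 in both diets. Of 7 T or NK cell markers 1 varied, Cd4, by -0.047 (SE 0.037), and their mean lay between 6.32 and 6.34 in both diets. Of 6 sinusoidal endothelial markers 1 varied, Stab1, by -0.070 (SE 0.042), and their mean lay between 7.70 and 7.73 in both diets. The other dendritic cell, T or NK cell and endothelial markers held shared values, so these means could hardly differ between diets. Whether those cell types differed cannot be read from them. All 4 cholangiocyte markers held shared values too. Of the 7 hepatocyte markers 6 varied, 4 lower and 2 higher, among them Cps1 with -0.27 (SE 0.041), Apoa1 with -0.11 (SE 0.024) and Ttr with 0.032 (SE 0.012). None of these passed limma. At an unadjusted p under 0.05 stood 1 of the B cell and 2 of the hepatocyte markers, where 1018 of all 7791 varying probe sets did. The array table used here gives no detection call to say which markers were absent.

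Genes with the most similar values over the 6 mice were sought among 4065 other varying genes, by the mean absolute difference from the centred class average. For class I the nearest were Psmb4, a proteasome subunit (0.038), Mrpl10 (0.039) and Mrpl34 (0.049), of the mitochondrial ribosome, and Sdhb (0.043), of the respiratory chain, where the median gene was at 0.16. Psmb4 read 10.19, 10.37 and 10.31 under 10C and 10.12, 10.00 and 10.22 under 6C+4CP. For class II they were Cbr1, a carbonyl reductase (0.066), Cybb, a subunit of the phagocyte oxidase (0.072), Cth, an enzyme of transsulfuration (0.075), and Cd5l (0.086), with the median gene at 0.19. Cybb read 6.79, 6.66 and 6.86 under 10C and 6.67, 6.49 and 6.68 under 6C+4CP. With 6 mice and 4065 genes such nearness is a description of these arrays.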

How the data were processed

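Total RNA from liver kept in RNAlater was labelled from 100 ng per mouse, per the labels' protocols. The deposited table gives the authors' processed values, treated as log2. The submitters' processing notes name R 2.7.2. How background was corrected and probes summarised, and the log base, is not given in the sources. The base was read from the values (4.76 to 14.48), so each fold rests on it. Where values are shared across arrays, no difference between diets can be read.

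Of 45101 probe sets 64 controls were left out. The platform annotation (from GEO) gave 1 symbol for 34945, several for 932 and none for 9160. Groups come from sample titles. The labels make each array a separate mouse.

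The test between diets was limma 3.58.1 under R 4.3.3 (lmFit, eBayes, 6 arrays, no covariates), adjusted by Benjamini-Hochberg, with SE and intervals from its moderated statistics. The fit was also run on simulated data. These held no shared values and had differences larger than that of any member, so that run cannot show how the fit handles either. The 11 lists name 128 genes and 113 were found on the array; each gene was read by its probe set with the highest mean. Members and lists were chosen with earlier results of these data known. Named were all members, the varying genes with the smallest p (at most 4 per pathway list, 3 per cell type list), and the 4 genes nearest each class average. Ciita, Psmb6, Psmb7 and Alb were named after their values were seen.

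Correlations of deviations from the diet mean were 0.477, -0.0893 and 0.0847 for mice of equal replicate number, 1 to 3. Between mice of unequal number they ran from -0.573 to 0.401. With 3 mice per diet these values cannot settle whether replicate numbers pair the mice. Alternatives were the replicate block, leaving out each mouse, quantile normalization, median centring, varying or brighter probe sets alone, trend with robust estimation, an adjusted p under 0.1, and other sets for the medians; combinations with varying probe sets, and the lists without each mouse, were added after seeing the data.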

Additional observations from a re-analysis of the deposited data

How the results depend on the processing

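No member probe set passed under any alternative run, and the smallest adjusted p of a member was 0.111, for H2-D1 1452544_x_at in limma on varying probe sets without 10C replicate 3. Some runs say little of the members. Over the whole array 1 probe set passed after quantile normalization, and 0 with median centring or with trend and robust estimation. In the last the SE of B2m 1452428_a_at was 10.51, beside 0.037 in the main fit. Of the 20 varying member probe sets 19 stayed lower in 6C+4CP under every alternative that can change a difference. These are leaving out a mouse, quantile normalization and median centring. The block, the choice of probe sets, trend with robust estimation and the threshold leave each difference as it is. Cd74, between -0.0084 and 0.0012 without single mice, turned higher without 6C+4CP replicate 1. The class I median ran from -0.32 to -0.17 without single mice, was -0.24 after quantile normalization, and the class II median ran from -0.43 to -0.20, with -0.32. The difference between them ran from -0.053 to 0.16 without single mice, so which class was lower by more depends on the mice: class I was without 10C replicate 1 or 6C+4CP replicate 2.

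The count of 109 called probe sets over the whole array rests on shared values. It was 3 with the replicate number as a block, 1 after quantile normalization, and 0 with median centring, the brighter probe sets, trend with robust estimation, or varying probe sets alone. It was 285 to 398 without single mice. Among varying probe sets it was 0 with the block and 0 to 0 without single mice, and 6 at an adjusted p under 0.1, with 0 members at that level. The block called 0 members and 1 interferon response gene, whose probe set holds a shared value. With unadjusted p under 0.05, 1140 varying probe sets stood in the fit to them alone. The 3 mice per diet and the missing background signal limit all values.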
